A study of Mus musculus with 4 samples.

Results

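The 33 genes described here mark astrocytes, the star-shaped glial cells of the brain, and were followed in messenger RNA bound to tagged ribosomes from the mouse hippocampus. Members were the rows of the deposited count table whose gene name stood on a list of 33 astrocyte markers, and all 33 were among the 28193 genes of the table. The experiment, fosTRAP-seq, asked how translation changes when neurons that were active during a first sleep deprivation meet a second one. The labels give male mice, dorsal hippocampus and the genotype cFos-Cre:Ribotag. The study's methods describe male C57BL/6J mice of 3 to 5 months that carried 2 viral vectors in dorsal CA1, a c-Fos-driven, tamoxifen-dependent Cre and a Cre-dependent, HA-tagged ribosomal protein Rpl22. In both groups every mouse had 5 h of sleep deprivation on day 0 and received 4-hydroxytamoxifen then, so that cells with an active c-Fos promoter were tagged. On day 7 the sleep-deprived group (SD) was kept awake for another 5 h, while the non-sleep-deprived group (NSD) was left undisturbed, and CA1 was collected at Zeitgeber time 5. Each group had 2 libraries, and each library held the pooled CA1 of 5 mice. The controls therefore share the vectors, the drug and the first sleep deprivation, and the comparison is about the second session alone.

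Astrocytes take up glutamate and potassium released by neurons, turn glutamate into glutamine, store glycogen and pass metabolites to each other through gap junctions. Their fine processes wrap synapses, and their endfeet cover blood vessels. The markers used here were ordered by what their products do, namely handling of glutamate, glutamine, GABA and serine, water and ion balance with gap junctions, energy and lipid metabolism, secretion, surface reception, and structure with transcription. The tag follows the c-Fos promoter and is not confined by its design to neurons, and an immunoprecipitate can hold RNA of untagged cells. No library of unbound RNA was analysed here, so enrichment or depletion of astrocyte RNA by the precipitation is not given. In pooled tissue, fewer astrocytes and less RNA per astrocyte cannot be told apart. Whether the RNA of these genes came from astrocytes, tagged neurons or other cells was not tested.

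The libraries held 153511705 to 195910235 estimated counts, and every member was counted in every library, with 301 counts for the lowest value. All 33 members passed the filter that left 22338 genes for testing. The labels number the libraries by batch, with 1 SD and 1 NSD library in each of batches 1 and 2. Defining markers of the labelled tissue were present. Per kilobase of exon, the median level of 20 excitatory neuron markers was 67.9 CPM, the count scaled to a common library size, led by Camk2a, a kinase of excitatory synapses, at 444. The 33 astrocyte markers had a median of 7.14 CPM per kilobase, 18 oligodendrocyte markers one of 4.60, 18 microglia and macrophage markers one of 1.76 and 22 endothelial and mural markers one of 0.559. Of 16 GABAergic interneuron markers, 15 were protein-coding genes with an exon length, with a median of 14.1. The median of these 33 markers lay between those of the interneuron and oligodendrocyte lists, but other astrocyte lists were lower, at 1.86 for 64 further astrocyte genes and 0.413 for 33 reactive astrocyte genes.

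Levels of different genes were compared only as CPM per kilobase, averaged over the 4 libraries. The 33 members spanned a 519-fold range. The astrocyte enzyme Glul, which makes glutamine from glutamate, had the highest level at 235 CPM per kilobase and ranked 31 among 15533 protein-coding genes. Slc1a2, the main glutamate transporter of the adult forebrain, followed at 211 and ranked 36. The ranges of these neighbours over the 4 libraries overlapped, though Glul was above Slc1a2 within each library. Below, overlap means that of the ranges over the 4 libraries.

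Below them, Cst3, a secreted inhibitor of cysteine proteases, stood at 46.9 CPM per kilobase, and its 4 libraries overlapped neither with Slc1a2 nor with the next gene. The glycolytic enzyme Aldoc at 39.3 and the secreted chaperone Clu at 39.1 overlapped. The next were the intermediate filament gene Gfap at 29.1, the lipid carrier Apoe at 27.2, the differentiation gene Ndrg2 at 26.8 and the sodium pump subunit Atp1b2 at 23.1, each overlapping with its neighbour. Ttyh1, an anion channel gene, at 17.6 was separate from both neighbours.

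A long middle stretch followed in which most neighbours overlapped. It held S100b at 11.8, Gpr37l1 at 11.2, Ppp1r3c at 10.35, Mlc1 at 9.06 and Slc1a3 at 9.02 CPM per kilobase. After a gap between Slc1a3 and Slc6a11, at 8.25, and another before Aqp4, at 7.14, came Gja1 at 6.33, Ntsr2 at 5.79, Sox9 at 5.31, Hepacam at 5.17, Acsbg1 at 4.54 and Fgfr3 at 4.38. From Aqp4 to Fgfr3 every pair of neighbours overlapped.

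The lower end began with F3 at 3.05 CPM per kilobase, Gjb6 at 2.44, Fabp7 at 2.23 and Aldh1l1 at 2.04, again with each pair of neighbours overlapping. Lcat at 1.16, Slc25a18 at 1.05 and Cbs at 0.851 came next. Agt at 0.482, Slc7a10 at 0.472 and Prodh at 0.452 closed the order and overlapped with each other. In all, 21 of 32 neighbouring pairs overlapped between libraries and 11 did not. The median protein-coding gene stood at 2.27, and 25 members were above it, 9 of them in the top 10% and 2, Glul and Slc1a2, in the top 1% of protein-coding genes. Length mattered for single genes, since Slc1a3 stood at 25.2 CPM per kilobase of its longest transcript against 9.02 over all its exons, but the same 5 genes led the order by either length. The order among them changed, with Clu at 102 CPM per kilobase of its longest transcript and Cst3 at 84.6, so the place of Cst3 holds for the exon union only.

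**Figure D1:**
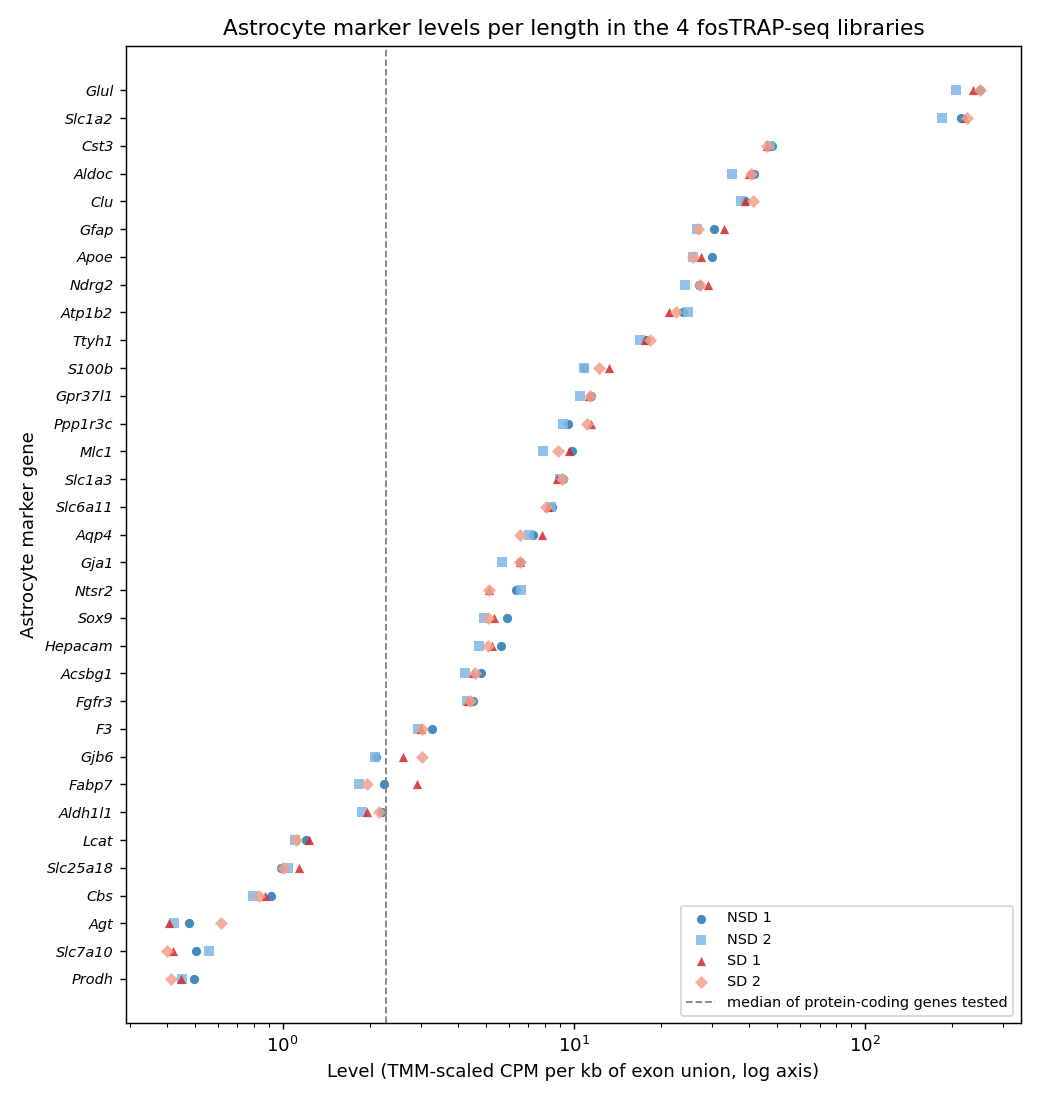
Level of each of the 33 astrocyte markers in the 4 libraries, as CPM per kilobase of exon on a log axis, 1 symbol per library (NSD 1, NSD 2, SD 1, SD 2), with the median of protein-coding genes as a dashed line at 2.27. Glul and Slc1a2 sit at 235 and 211, well apart from Cst3 at 46.9, and the spread of a gene's 4 libraries is small beside the differences between distant genes.

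The members' share of all counts was 0.600% in NSD 1, 0.530% in NSD 2, 0.589% in SD 1 and 0.579% in SD 2. NSD 2 was lowest, and the other libraries lay close together. Slc1a2 alone made up 49.9% to 52.5% of the members' summed CPM and Glul another 15.7% to 16.7%, so the sum follows these genes. The summed level was 5898 CPM in NSD 1, 5175 in NSD 2, 5932 in SD 1 and 5997 in SD 2. After TMM scaling both SD libraries were above both NSD libraries, with a log2 ratio of summed SD over summed NSD of 0.11. Without TMM factors that ratio was 0.048, and NSD 1 was above both SD libraries, as the shares show. On the scaled values the gap between the NSD libraries was larger than the gap from NSD 1 to either SD library. Relative to the summed excitatory neuron markers, the astrocyte markers came to 35.9% in NSD 1, 28.7% in NSD 2, 35.1% in SD 1 and 33.3% in SD 2. On that scale NSD 1 was highest and the groups overlapped.

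The low position of NSD 2 was shared by most members. In 28 of 33 members (84.8%) NSD 2 was below NSD 1, with a median log2 difference of -0.14, while this held for 46% of protein-coding genes. NSD 2 was the lowest of the 4 libraries for 22 members (66.7%), against 22.5% of protein-coding genes, and NSD 1 was the highest for 16. Most genes of several other lists were lower in NSD 2 too, namely 52 of 64 further astrocyte genes, 15 of 18 oligodendrocyte markers and 16 of 18 microglia and macrophage markers. The same held for 14 of 16 GABAergic interneuron markers, while 17 of 33 reactive astrocyte genes (51.5%) were lower in NSD 2. Excitatory neuron markers went the other way, lower in NSD 2 for 2 of 20 with a median log2 difference of 0.17. Endothelial and mural markers did as well, lower in NSD 2 for 5 of 22. The part of this library difference in the comparisons below was not tested beyond the values given with each library left out.

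**Figure D2:**
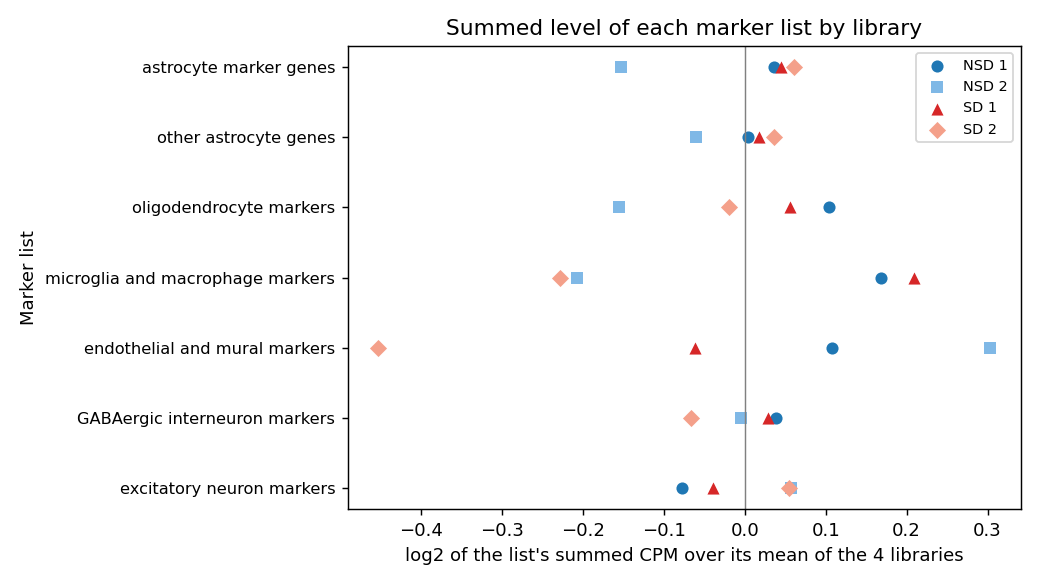
Summed CPM of 7 marker lists in each library, as log2 of the ratio to the list's mean over the 4 libraries, 1 symbol per library. For the astrocyte marker genes NSD 2 lies left of the other libraries, which are close together, while for excitatory neuron markers NSD 2 and SD 2 lie right of NSD 1 and SD 1. Endothelial and mural markers spread most, from NSD 2 at the right to SD 2 at the left.

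As a list, the astrocyte markers differed little between SD and NSD. By edgeR's quasi-likelihood test at thresholds of 0.05 for the adjusted p and 1.2 for the fold change, no member was called higher, where 0.770% of all genes tested were, and no member was called lower, where 2.33% were. Before adjustment, 3 members were higher and 2 lower at p under 0.05 (9.09% and 6.06%), beside 6.86% and 12.2% of all genes tested. The smallest adjusted p values of members were 0.0665 for Ntsr2, 0.0772 for Ppp1r3c and 0.0850 for Gjb6 (edgeR). When the batch entered the edgeR fit as a replicate block, these 3 were called. Gjb6 and Ppp1r3c were then higher in SD, where 2.99% of all genes were called higher, and Ntsr2 was lower, where 8.47% were called lower. DESeq2 called the same 3 genes in the same directions, against 2.99% of genes called higher and 5.79% called lower. The 2 called higher were 6.06% of the members and the 1 called lower was 3.03%, counts within 2 genes of what these shares come to among 33.

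The median log2 fold change of the members was 0.03, against -0.02 over all genes tested and 0.02 over 15551 protein-coding genes. Of the 33, 20 were above 0 and 13 below, with a range from -0.37 to 0.43. The median was -0.04 without NSD 2 and 0.13 without NSD 1. Both SD libraries exceeded both NSD libraries in 7 members (21.2%), where 22.0% of all genes did, and both fell short of them in 6 (18.2%), where 27.5% of all genes did. In the other 20 the groups overlapped. The fold change was within 1.2 either way for 29 members. The 95% confidence interval lay inside a fold change of 1.5 either way for 29 members as well, and reached past it for Gjb6, Slc7a10, Fabp7 and Agt. These p values measure the spread between pools of mice with 2 pools per group.

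**Figure D3:**
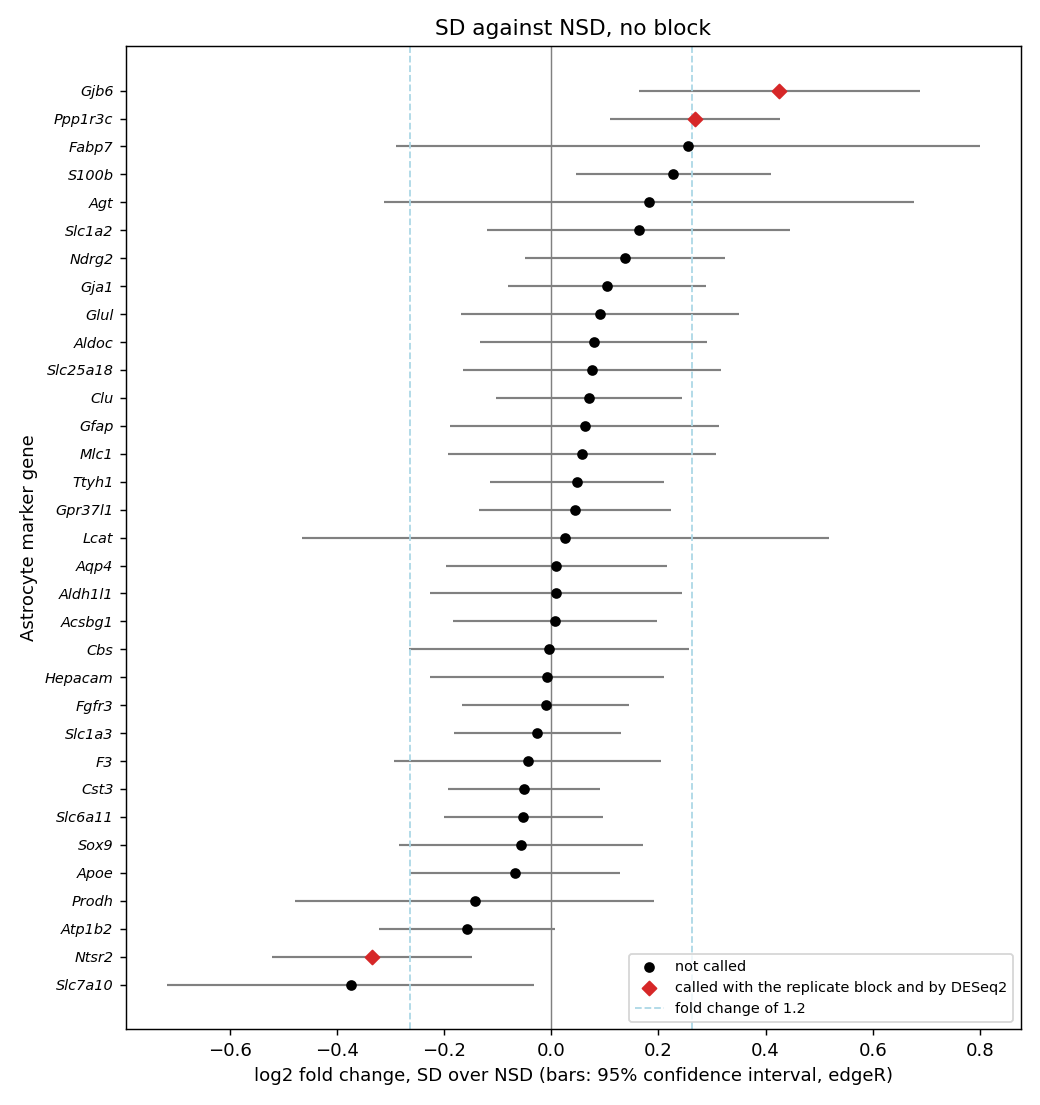
Log2 fold change of SD over NSD for each astrocyte marker with its 95% confidence interval from edgeR without the block, from highest to lowest, with dashed lines at a fold change of 1.2. Gjb6 at 0.43 and Slc7a10 at -0.37 are the ends of the range, 28 of 33 intervals include 0, and red diamonds mark Gjb6, Ppp1r3c and Ntsr2, which were called with the replicate block and by DESeq2 and not by edgeR without the block.

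Among the 7 genes that handle glutamate, glutamine, GABA and serine, none was called by any of the 3 fits, 3 were above 0 and 4 below, and the median log2 fold change was -0.03. Slc1a2 measured 2996 CPM in NSD 1, 2584 in NSD 2, 3102 in SD 1 and 3147 in SD 2. Both SD libraries were above both NSD libraries, though NSD 1 was nearer to them than to NSD 2. Its log2 fold change was 0.16 ± 0.12 (standard error; edgeR adjusted p = 0.552). Its paralog Slc1a3, the glutamate transporter also made by radial glia, measured 135 and 131 CPM in NSD and 128 and 133 in SD. The groups overlapped, with a log2 difference of -0.03 ± 0.07 (edgeR adjusted p = 0.894).

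Glul measured 983 CPM in NSD 1, 814 in NSD 2, 933 in SD 1 and 981 in SD 2. NSD 1 was as high as SD 2, NSD 2 was far below the rest, and the log2 fold change was 0.09 ± 0.11 (edgeR adjusted p = 0.752). The GABA transporter gene Slc6a11 was narrow in range, between 40.6 and 42.5 CPM, with both SD libraries below both NSD libraries and a log2 fold change of -0.05. Slc25a18, a mitochondrial glutamate carrier gene, had a log2 fold change of 0.08 with overlapping groups. Prodh, which starts proline breakdown, measured 5.47 and 4.97 CPM in NSD and 4.92 and 4.54 in SD. Its SD libraries were the lower ones by a small margin, with a log2 difference of -0.14 ± 0.15 (edgeR adjusted p = 0.685).

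The lowest log2 fold change of any member belonged to Slc7a10, which codes for Asc-1, an exchanger of D-serine and other small neutral amino acids. It measured 4.999 CPM in NSD 1, 5.55 in NSD 2, 4.17 in SD 1 and 3.96 in SD 2. Both SD libraries were below both NSD libraries, with a log2 fold change of -0.37 ± 0.15 and a confidence interval from -0.72 to -0.03. It did not pass by edgeR (adjusted p = 0.219), with the replicate block (edgeR adjusted p = 0.0937) or by DESeq2 (adjusted p = 0.198). Slc7a10 shares 4969 exon bases with Lrp3 on the opposite strand, a gene with 2137% of its count. The library kit keeps the strand, and whether the counting used it is not given in the sources used here. The same holds for Slc25a18 with Atp6v1e1 and for Prodh with Dgcr6, whose partners had 883% and 283% of their counts. None of these partners passed by edgeR (adjusted p = 0.917 for Lrp3, 0.889 for Atp6v1e1 and 0.392 for Dgcr6).

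Of the 7 genes for water, ion balance and gap junctions, 5 were above 0 and 2 below, the median log2 fold change was 0.05, and Gjb6 alone was called with the block and by DESeq2. Gjb6 codes for connexin 30, one of the gap junction proteins that couple astrocytes to each other. It lies on chromosome 14 of GRCm39 from 57360760 to 57371068, minus strand. The promoter window from RefSeq, 250 bases before the start site to 50 after, is shown for each member called by any fit. That of Gjb6 lies at chr14:57133562-57133861 of the build GRCm38.p6 on the minus strand. It held none of the motifs searched (named at the end of the results), so no base is in capitals.
Gjb6: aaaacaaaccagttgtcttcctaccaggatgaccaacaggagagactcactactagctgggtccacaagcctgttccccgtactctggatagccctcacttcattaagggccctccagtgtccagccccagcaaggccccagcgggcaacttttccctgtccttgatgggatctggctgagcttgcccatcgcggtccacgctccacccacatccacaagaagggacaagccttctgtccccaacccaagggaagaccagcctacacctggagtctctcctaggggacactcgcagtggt

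Gjb6 measured 8.18 CPM in NSD 1, 8.17 in NSD 2, 10.2 in SD 1 and 11.8 in SD 2. The NSD libraries were nearly equal, and both SD libraries were above them. The log2 fold change was 0.43 ± 0.11 with a confidence interval from 0.16 to 0.69, and NSD averaged 8.18 ± 0.0129 against 10.98 ± 1.17 in SD (standard deviation, n = 2). It missed the threshold by edgeR (adjusted p = 0.0850) and passed it with the replicate block (edgeR adjusted p = 0.0137) and by DESeq2 (adjusted p = 0.0161). Without SD 1 it passed by edgeR without the block as well, at a log2 fold change of 0.53 (adjusted p = 0.0240). It did not pass by edgeR without SD 2 (0.33, adjusted p = 0.371), without NSD 1 (0.46, adjusted p = 0.145) or without NSD 2 (0.42, adjusted p = 0.137). Gjb2, its neighbour on the chromosome and the gene of connexin 26, measured 2.50 and 2.01 CPM in NSD and 2.20 and 2.32 in SD, with overlapping groups and a log2 difference of -0.00 (edgeR adjusted p = 1.00).

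Gja1, the gene of connexin 43 and higher than Gjb6 per kilobase, measured 80.6 CPM in NSD 1, 69.6 in NSD 2, 80.7 in SD 1 and 80.7 in SD 2. NSD 1 stood with the SD libraries and NSD 2 below them, and the log2 fold change was 0.10 ± 0.08 (edgeR adjusted p = 0.563). Gjb6 and Gja1 therefore differed in where their NSD libraries lay, and the difference between their fold changes was not tested. Aqp4, the water channel of astrocyte endfeet, measured 47.4 and 45.9 CPM in NSD and 51.2 and 42.8 in SD. The SD libraries held both its highest and its lowest value, with a log2 difference of 0.01 ± 0.09 (edgeR adjusted p = 0.974).

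Atp1b2, which codes for the beta subunit of the sodium pump first described as an adhesion molecule on glia, measured 160.1 CPM in NSD 1, 166 in NSD 2, 142 in SD 1 and 150.5 in SD 2. Both SD libraries were below both NSD libraries, and the log2 fold change was -0.16 ± 0.07 (edgeR adjusted p = 0.282). Mlc1 and Hepacam, whose products form a complex at astrocyte junctions, had log2 fold changes of 0.06 and -0.01. For both, NSD 1 was the highest library and NSD 2 the lowest. Ttyh1 had a log2 fold change of 0.05, and its groups overlapped.

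Of the 6 genes for energy, lipid and one-carbon metabolism, 5 were above 0 and 1 below, and the median log2 fold change was 0.04. Ppp1r3c, which codes for the protein PTG that brings protein phosphatase 1 to glycogen and so favours glycogen synthesis, was called with the block and by DESeq2. It lies on chromosome 19 of GRCm39 from 36709131 to 36714053, minus strand. Its RefSeq promoter window, at chr19:36736555-36736854 of GRCm38.p6 on the minus strand, is shown as that of a called member. It held the E-box CACGTG, in capitals, with its first base at position -104 from the start site.
Ppp1r3c: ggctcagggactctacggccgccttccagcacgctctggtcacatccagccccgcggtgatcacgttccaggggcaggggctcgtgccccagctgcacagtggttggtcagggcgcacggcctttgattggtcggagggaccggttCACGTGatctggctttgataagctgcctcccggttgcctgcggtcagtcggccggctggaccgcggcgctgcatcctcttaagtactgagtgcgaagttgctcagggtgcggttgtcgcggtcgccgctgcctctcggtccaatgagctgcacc

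Ppp1r3c measured 32.0 CPM in NSD 1, 30.9 in NSD 2, 38.4 in SD 1 and 37.4 in SD 2. The SD libraries were the higher ones, and the libraries of a group were about 1 CPM apart. NSD averaged 31.5 ± 0.765 and SD 37.9 ± 0.763 (standard deviation, n = 2), and the log2 fold change was 0.27 ± 0.07 with a confidence interval from 0.11 to 0.43. It missed the threshold by edgeR (adjusted p = 0.0772) and passed it with the replicate block (edgeR adjusted p = 0.0119) and by DESeq2 (adjusted p = 0.0134). The difference was nearly the same in both batches, 0.26 and 0.27 on the log2 scale. NSD 2, the library that was low for most members, was lowest here too, at 30.9 CPM against 32.0 in NSD 1.

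Fabp7, a fatty acid binding protein gene of radial glia and astrocytes, measured 2.85 CPM in NSD 1, 2.34 in NSD 2, 3.70 in SD 1 and 2.50 in SD 2. SD 1 stood above the rest, SD 2 lay between the NSD libraries, and the log2 fold change of 0.26 ± 0.24 had a confidence interval from -0.29 to 0.80 (edgeR adjusted p = 0.649). Without SD 1 its log2 fold change was -0.05. Aldoc measured 194 CPM in NSD 1, 163 in NSD 2, 187 in SD 1 and 189.9 in SD 2. NSD 1 was highest and NSD 2 lowest, with a log2 difference of 0.08 ± 0.09 (edgeR adjusted p = 0.734). Aldh1l1, an enzyme of folate metabolism widely used to define astrocytes, measured 18.7 and 16.0 CPM in NSD and 16.7 and 18.2 in SD. The NSD libraries enclosed the SD libraries, and the log2 fold change was 0.01 ± 0.10 (edgeR adjusted p = 0.977). Acsbg1, an acyl-CoA synthetase gene that shares 1875 exon bases with Idh3a on the opposite strand (394% of its count), and Cbs, which makes cystathionine, had log2 fold changes of 0.01 and -0.00 in that order, both with overlapping groups.

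Of the 5 genes for secreted proteins and lipid carriers, none was called by any fit, 3 were above 0 and 2 below, and the median log2 fold change was 0.03. Clu measured 218 CPM in NSD 1, 212 in NSD 2, 218 in SD 1 and 233 in SD 2. SD 2 was highest, SD 1 was level with NSD 1, and the log2 fold change was 0.07 ± 0.08 (edgeR adjusted p = 0.705). Cst3 measured 87.3 and 85.5 CPM in NSD and 83.3 and 83.4 in SD. Both SD libraries were just below both NSD libraries, with a log2 difference of -0.05 ± 0.06 (edgeR adjusted p = 0.744). Apoe had its highest value in NSD 1 and a log2 fold change of -0.07. Lcat, which esterifies cholesterol on lipoproteins, had one of 0.03. Agt, the angiotensin precursor gene, measured 3.94 and 3.51 CPM in NSD and 3.37 and 5.09 in SD, so that the SD libraries were both ends of the range. Its log2 fold change of 0.18 had a confidence interval from -0.31 to 0.68, and it shares 2450 exon bases with Cog2, which had 371% of its count, on the opposite strand.

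Of the 4 surface receptor genes, 1 was above 0 and 3 below, and Ntsr2 was called lower with the block and by DESeq2. Ntsr2 codes for the low-affinity neurotensin receptor, which in the brain is found mostly on astrocytes. It lies on chromosome 12 of GRCm39 from 16703383 to 16710228, plus strand. Its RefSeq promoter window, at chr12:16653220-16653519 of GRCm38.p6 on the plus strand, is shown as that of a called member. CACGTG is in capitals, with its first base at position -152.
Ntsr2: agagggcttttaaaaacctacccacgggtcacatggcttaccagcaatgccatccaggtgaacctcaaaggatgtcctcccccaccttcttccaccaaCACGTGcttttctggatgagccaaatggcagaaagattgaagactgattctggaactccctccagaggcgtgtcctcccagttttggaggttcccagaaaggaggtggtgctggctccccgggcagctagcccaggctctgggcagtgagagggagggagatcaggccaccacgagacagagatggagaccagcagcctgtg

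Ntsr2 measured 19.8 CPM in NSD 1, 20.7 in NSD 2, 16.1 in SD 1 and 16.1 in SD 2. The SD libraries were nearly identical, and both were below both NSD libraries. NSD averaged 20.3 ± 0.635 and SD 16.1 ± 0.00807 (standard deviation, n = 2), and the log2 fold change was -0.34 ± 0.08 with a confidence interval from -0.52 to -0.15. It missed the threshold by edgeR (adjusted p = 0.0665) and passed it with the replicate block (edgeR adjusted p = 0.00997) and by DESeq2 (adjusted p = 0.0239). Ntsr2 was one of 3 members with NSD 2 as the highest library. It shares 531 exon bases with Lpin1, a phosphatidate phosphatase gene on the opposite strand with 168% of its count. Lpin1 measured 29.3 and 27.5 CPM in NSD and 30.6 and 33.1 in SD, the opposite direction, with a log2 difference of 0.17 (edgeR adjusted p = 0.307).

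The remaining receptor genes stayed close to 0 on the log2 scale. Gpr37l1, an orphan G protein-coupled receptor gene, had a log2 fold change of 0.04, Fgfr3, a fibroblast growth factor receptor gene, one of -0.01, and F3, the tissue factor gene, one of -0.04. In all 3 the groups overlapped, and NSD 1 was the highest library and NSD 2 the lowest.

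Of the 4 genes for cytoskeleton, calcium binding and transcription, 3 were above 0 and 1 below, and the median log2 fold change was 0.10, the highest of the 6 role groups. S100b, a calcium-binding protein gene, measured 21.7 CPM in NSD 1, 21.7 in NSD 2, 26.4 in SD 1 and 24.4 in SD 2. The NSD libraries were close together and both SD libraries were above them, with a log2 fold change of 0.23 ± 0.08 and a confidence interval from 0.05 to 0.41. It missed the threshold by edgeR (adjusted p = 0.161), with the replicate block (edgeR adjusted p = 0.0516) and by DESeq2 (adjusted p = 0.0850). Gfap measured 174 CPM in NSD 1, 152 in NSD 2, 187 in SD 1 and 153 in SD 2. Batch 1 was high and batch 2 low in both groups, and the log2 fold change was 0.06 ± 0.11 (edgeR adjusted p = 0.833). Sox9, the transcription factor gene used to stain astrocyte nuclei, measured 24.6 and 20.6 CPM in NSD and 22.3 and 21.2 in SD. The NSD libraries enclosed the SD libraries, with a log2 difference of -0.06 ± 0.10 (edgeR adjusted p = 0.835). In Ndrg2 the NSD libraries were both below the SD libraries, with a log2 difference of 0.14 ± 0.08 (edgeR adjusted p = 0.428).

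**Figure D4:**
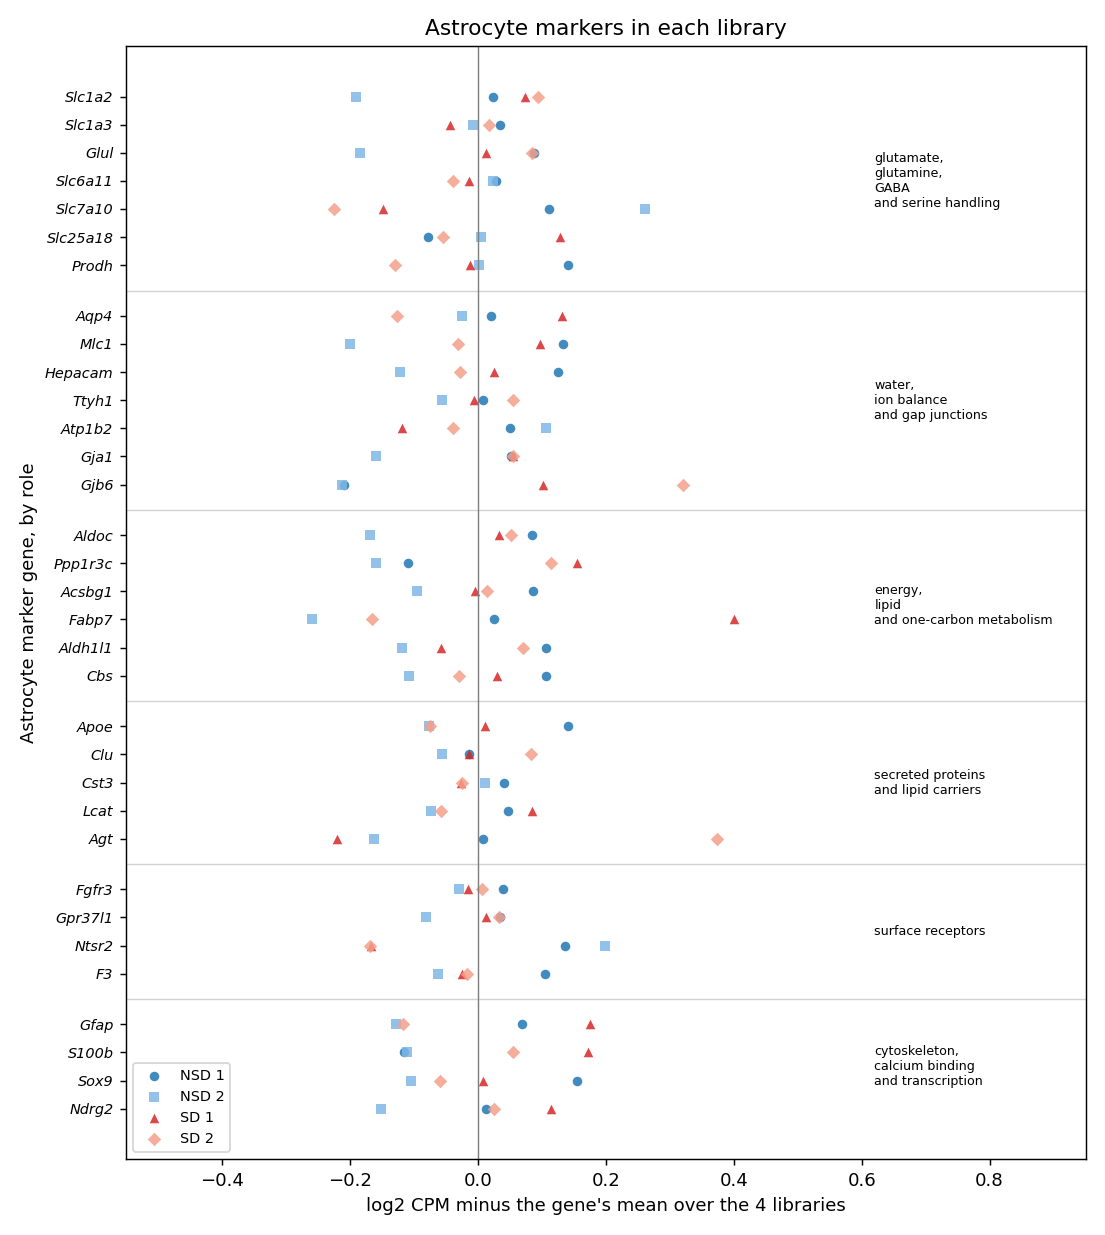
Each astrocyte marker's log2 CPM in each library minus the gene's mean over the 4 libraries, grouped by role, 1 symbol per library (NSD 1, NSD 2, SD 1, SD 2). NSD 2 is leftmost in 22 of 33 genes, while in Gjb6, Ppp1r3c and S100b both NSD libraries lie left of both SD libraries and in Ntsr2 and Slc7a10 both lie right of them.

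Taken within each batch, 10 members were higher in SD in both batches, 6 were lower in both, and 17 had opposite signs. The median difference on the log2 scale was -0.05 in batch 1 and 0.09 in batch 2. NSD 2, the library that was low for most members, is the control of batch 2. Gjb6 had a difference of 0.31 in batch 1 and 0.53 in batch 2, Ntsr2 one of -0.30 and -0.37, Slc7a10 one of -0.26 and -0.48, and S100b one of 0.29 and 0.17. For these the direction was shared. Agt had -0.23 in batch 1 and 0.54 in batch 2, Glul -0.08 and 0.27, and Aldh1l1 -0.16 and 0.19, all of opposite sign.

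**Figure D5:**
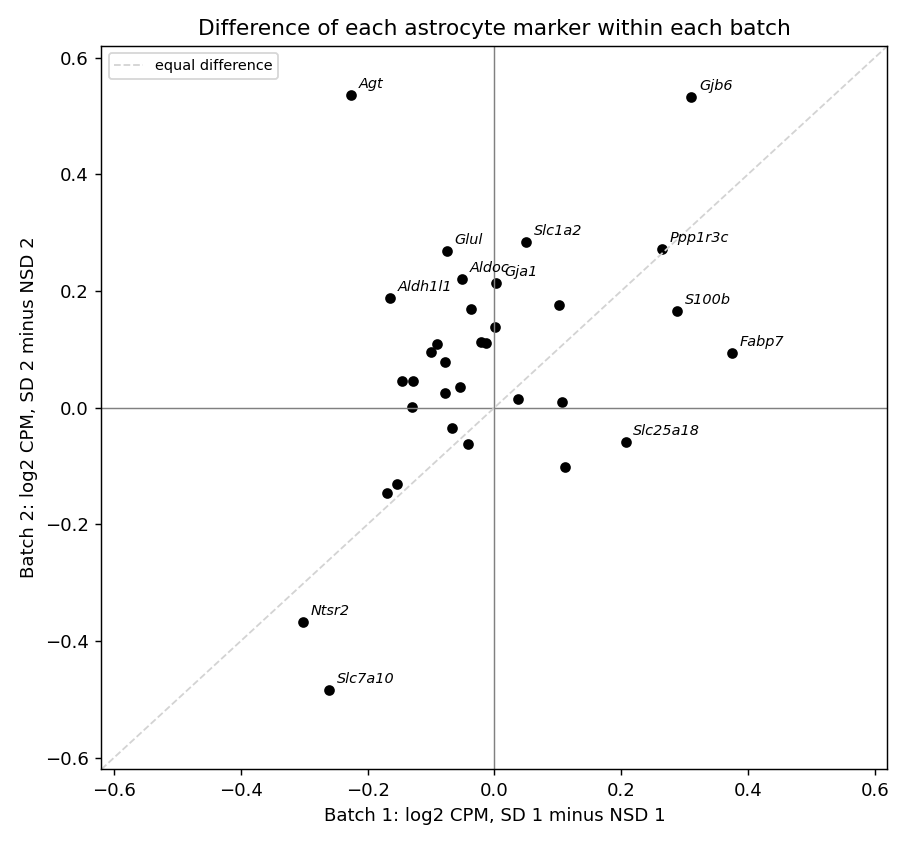
Log2 difference of SD minus NSD for each astrocyte marker in batch 1 (horizontal) and batch 2 (vertical), 1 point per gene, with a dashed line of equal differences. Ppp1r3c lies on that line at 0.26 and 0.27, Gjb6 and S100b lie in the upper right and Ntsr2 and Slc7a10 in the lower left, while 17 genes have opposite signs in the batches.

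Among 64 further astrocyte genes, 1 was called higher by edgeR and none lower, where 0.770% and 2.33% of all genes were, and their median log2 fold change was 0.00. The 1 called gene was Scara3, a scavenger receptor gene, which measured 22.0 and 22.8 CPM in NSD and 27.8 and 31.6 in SD. Both SD libraries were above both NSD libraries, with a log2 difference of 0.41 (edgeR adjusted p = 0.0482). With the block, 2 were called higher, Scara3 and Dio2, the enzyme that activates thyroid hormone, and 4 lower, Slc27a1, Grin2c, Timp4 and Gpc5, named after their values were seen, where 2.99% and 8.47% of all genes were. DESeq2 called 2 higher and 1 lower, where 2.99% and 5.79% of all genes were. Among 64 genes these counts are near or below the shares over all genes. On a list of 35 reactive astrocyte genes, 33 were tested, and 24 were below 0 with a median log2 fold change of -0.28. Within the batches the median log2 difference of this list was -0.017 in batch 1 and -0.435 in batch 2. Serpina3n, a protease inhibitor gene, was called lower, at 39.6 and 42.6 CPM in NSD and 30.8 and 29.1 in SD with a log2 difference of -0.46 (edgeR adjusted p = 0.0363). With the block, 1 gene of this list was called higher and 3 lower, shares of 33 genes close to the 2.99% and 8.47% of all genes. In SD 2 the reactive list was lowest for 20 of 33 genes, where 7176 of 22338 genes tested were. Its summed level was 228 CPM there against 317 to 327 in the other libraries. That sum fell with genes such as H2-D1, at 80.0 CPM in SD 1 and 46.3 in SD 2, and Iigp1, at 39.7 and 11.8, named after their values were seen. In all, 24 of 33 genes were lower in SD 2 than in SD 1. SD 2 was also lowest for 14 of 18 microglia and macrophage markers, 19 of 22 endothelial and mural markers and 9 of 16 interneuron markers. The members of the marker list did not share this low position, with 5 of 33 lowest in SD 2.

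The gene families of the called members were examined beside them. Of 22 tested genes for glycogen enzymes and targeting subunits other than Ppp1r3c, none was called by edgeR in either direction (2 were higher and 0 lower at an unadjusted p under 0.05), and 2 were called higher with the block and by DESeq2, Ppp1r3f and Stbd1, named after their values were seen. Over all genes these shares were 6.86% and 12.2% at an unadjusted p under 0.05, and 2.99% were called higher with the block and 2.99% by DESeq2. The median log2 fold change of this list was 0.02, with 13 above 0 and 9 below. Of 12 tested connexins and pannexins other than Gja1 and Gjb6, none was called by edgeR, with the block or by DESeq2, none had an unadjusted edgeR p under 0.05, and the median log2 fold change was -0.02.

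Markers of other cells gave the setting for these values. Of 20 excitatory neuron markers, 18 oligodendrocyte markers, 18 microglia and macrophage markers and 16 GABAergic interneuron markers, none was called by edgeR, and the median log2 fold changes were 0.03, -0.02, -0.06 and -0.04. At an unadjusted p under 0.05, 4 excitatory neuron markers were lower, 2 oligodendrocyte markers were higher and 2 lower, 1 interneuron marker was higher, and no microglia marker was either. With the block, 4 excitatory neuron markers and 1 interneuron marker were called lower, and 2 oligodendrocyte markers were called higher and 2 lower, while DESeq2 called 4 excitatory neuron markers lower, no interneuron or microglia marker, and 1 oligodendrocyte marker higher and 2 lower. Over all genes tested, 6.86% were higher and 12.2% lower at an unadjusted p under 0.05, 2.99% and 8.47% were called with the block, and 2.99% and 5.79% by DESeq2. All 22 endothelial and mural markers were below 0, with a median log2 fold change of -0.52. None was called by edgeR (8 lower at an unadjusted p under 0.05), 7 were called lower with the block and 4 by DESeq2. The median log2 difference of these markers was -0.175 in batch 1 and -1.02 in batch 2. NSD 2 was highest for 17 of these 22 markers and SD 2 lowest for 19. Their summed level ranged from 143 to 163 CPM in NSD and from 96.7 to 127 in SD. Of 6 tested ependymal and choroid plexus markers, 5 were below 0, with a median log2 fold change of -0.62. By edgeR 1 was called lower, where 2.33% of all genes were, namely Kl, the gene of Klotho (log2 fold change -0.54, adjusted p = 0.0405). Whether blood vessel content had a part in the values of Gjb6, Ppp1r3c or Ntsr2 was not tested.

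The RefSeq table of promoter windows, on the build GRCm38.p6, matched 29 of the 33 members with 35 windows among 32851 in all. The motifs searched on both strands were the E-box CACGTG, the cyclic AMP response element TGACGTCA, the AP-1 site TGACTCA, the nuclear factor I half-site TTGGCA and the SOX core ACAATG, none of which contains another. CACGTG was in the windows of Cbs, Ntsr2 and Ppp1r3c, 8.57% of member windows against 7.15% of all windows. TGACGTCA was in no member window and in 1.79% of all windows, and TGACTCA was in those of F3 and Gja1, with 5.20% of all windows. TTGGCA was in the windows of Aldoc, Apoe, Hepacam and S100b, with 14.1% of all windows, and ACAATG was in those of Apoe and Lcat, with 12.6% of all windows. The shared E-box stood before 1 gene that was higher and 1 that was lower in SD with the block, and before Cbs, with a log2 fold change of -0.00. Median GC content was 57.3% over member windows and 52.7% over all windows.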

How the data were processed

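Ribosome-bound RNA of 4 libraries (2 SD, 2 NSD, each a pool of 5 mice) was analysed. The authors trimmed reads, aligned them with STAR to mm39, quantified them with the Partek E/M model against an Ensembl annotation and deposited estimated counts per gene, of which 55.6% of genes had a value that was not whole. The counts were rounded, the 22338 of 28193 genes that exceeded 5 counts in each library were tested, SD being compared with NSD by the quasi-likelihood test of edgeR 4.0.16 in R 4.3.3, with TMM factors of 0.965 to 1.02 and Benjamini-Hochberg adjustment over all genes tested. Calls needed both an adjusted p below 0.05 and a 1.2-fold difference. Alternatives were a replicate block, DESeq2 1.42.0, other scaling and filters, and leaving out each library. Replicate numbers equal the batch numbers in the labels. Deviations within a batch correlated at 0.178 over all genes, 0.121 over protein-coding genes and 0.111 over the members. Levels are TMM-scaled CPM, with exon lengths from a GENCODE annotation of GRCm39. The tests across genes were checked on simulated data with larger changes than any member had, a common dispersion and no batch effect. That check does not cover differences of the members' size or the gain from the block.

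The members and gene lists were chosen with earlier results of these data known. Every member is named, with values per library for members called by any of the 3 fits, the 3 largest fold changes in each direction, the 5 highest levels per length and Gfap, Aqp4, Aldh1l1, Slc1a2, Slc1a3, Sox9 and Glul. Agt, Gja1, Prodh and S100b were given per library as well, chosen after their values were seen. No protein sequences were used here.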

Additional observations from a re-analysis of the deposited data

How the results depend on the processing

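No member was called without the block, while 2 were called higher and 1 lower with the replicate block, which pairs the libraries of 1 batch, and likewise 2 higher and 1 lower with DESeq2. With each library left out in turn, 0 to 1 members were called higher and 0 lower. The 1 was Gjb6 without SD replicate 1 (log2 fold change 0.53, edgeR adjusted p = 0.0240, the remaining SD library being assumed to vary like the NSD pair). The members' median log2 fold change ran from -0.04 without NSD replicate 2 to 0.13 without NSD replicate 1. Several members changed sign, Fabp7 among them from 0.26. Slc1a3 became 0.0018 with no count filter, and Aqp4 -0.012 and Aldh1l1 -0.013 among protein-coding genes only. With each library left out in turn, Slc1a3 ran from -0.046 to 0.025, Aqp4 from -0.12 to 0.15, Aldh1l1 from -0.098 to 0.16, Sox9 from -0.18 to 0.11, Gfap from -0.089 to 0.22, Glul from -0.038 to 0.26, Aldoc from -0.041 to 0.24 and Fabp7 from -0.053 to 0.53. The sign turned without NSD replicate 2 for Glul, Aldoc, Gfap, Aqp4 and Aldh1l1, without NSD replicate 1 for Slc1a3 and Sox9, without SD replicate 1 for Gfap, Aqp4, Fabp7 and Slc1a3, and without SD replicate 2 for Aldh1l1. The cause was not tested.

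Calls over all genes, 172 higher and 520 lower, became 668 and 1891 with the replicate block, 669 and 1294 with DESeq2, 50 and 80 with no count filter, 1 and 0 with filterByExpr and 51 and 39 among protein-coding genes. With 1 library left out they ran from 144 to 321 higher and from 87 to 1953 lower. Each member had at least 301 counts in every library, and each group had 2 pools. Without TMM factors the log2 ratio of the summed level was 0.048, against 0.11 with them.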
